A study of Brassica rapa with 8 samples.

Results

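Stem was compared with leaf in 7-week-old plants of *Brassica rapa*, a leafy crop, all of the inbred Chinese cabbage Chiifu-401-42. The comparison used 3 of the 8 samples of the series: 1 of stem and 2 of leaf, called leaf 1 and leaf 2 here. All 3 came from greenhouse plants of this line, and the labels name no mutation, transgene or treatment. The leaf samples were taken from different batches of plants according to the study's methods, and a difference between them can be one of batch. The batch of the stem plants, the part of the stem taken and the number of plants pooled are not given in the sources used here. Poly(A)+ RNA was sequenced as paired reads, and the level of each gene is given as FPKM, the number of sequenced fragments relative to transcript length and to all mapped fragments of the library. Each FPKM value has a deposited 95% confidence interval, which is of 1 library and does not hold the spread between plants. Stem has 1 sample, so differences between stem and leaf have no replicate check on the stem side.

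The leaf is the main photosynthetic organ of the plant, where chloroplasts capture light and fix carbon. The stem carries water, minerals and sugars between root and leaf through xylem and phloem, and its fibres and vessels hold it upright with thickened, lignified walls. In a Chinese cabbage the stem stays short under the leaf rosette until the plant bolts. The deposited table names genes by Bra identifiers alone. The name table used here, of another assembly, held 1 of the 38200 identifiers, so no names or functions were assigned, and the organ labels were not checked against marker genes. Genes are therefore described below by level, by position and by their values in the other tissues, with 2 identifiers in each direction.

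A gene entered the comparison when its FPKM was at least 1 in stem, leaf 1 or leaf 2, which held for 25037 of the 38200 gene models. A gene was called when log2(FPKM + 1) in stem lay at least 2-fold outside both leaf samples. On FPKM as deposited, 4919 genes were higher in stem (19.6% of those entered) and 1855 were higher in leaf (7.41%). In 12 genes stem was at least 2-fold above one leaf sample and at least 2-fold below the other. Of the genes not called, 10692 lay above both leaf samples and 4426 below both, by less than 2-fold from the nearer one. Some of these were at least 2-fold from the other leaf sample. Another 3145 lay between the leaf samples or equalled one of them. The last group includes those 12 genes.

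The balance between both directions rested on how the samples were scaled. Over all genes entered, the median difference of stem from leaf on log2(FPKM + 1) was 0.37 for leaf 1 and 0.64 for leaf 2, so a typical gene had a higher FPKM in stem. The 1855 genes higher in leaf held 26.9% of the summed FPKM of leaf 1 and 33.4% of leaf 2, against 5.80% in stem. The 4919 genes higher in stem held 26.7% of the summed FPKM of stem, against 8.17% in leaf 1 and 6.06% in leaf 2. The direction of these shares follows from the calls. When the 3 samples were set to the same upper quartile, 3028 genes (12.1%) were higher in stem and 2783 (11.1%) in leaf. When stem was centred on each leaf sample, so that the median difference was 0 over the 22977 genes expressed in all 3 samples, 2207 genes (8.81%) were higher in stem and 3468 (13.9%) in leaf. Without the 20 highest genes of each sample in the scaling, a setting chosen after seeing the data, the median difference over those 22977 genes was 0.31 for leaf 1 and 0.43 for leaf 2, beside 0.34 and 0.61 as deposited, and 4488 genes were higher in stem and 2220 in leaf. Genes higher in stem were thus 72.6% of those called as deposited, 66.9% without the highest genes, 52.1% at equal upper quartiles and 38.9% after centring. The 2207 genes called higher in stem after centring were among the 4919 and the 1855 higher in leaf among the 3468, as a shift in 1 direction requires. RNA per cell was not measured. A change in the RNA per cell and a change in the number of cells of a type cannot be told apart in these whole-organ samples.

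**Figure D1:**
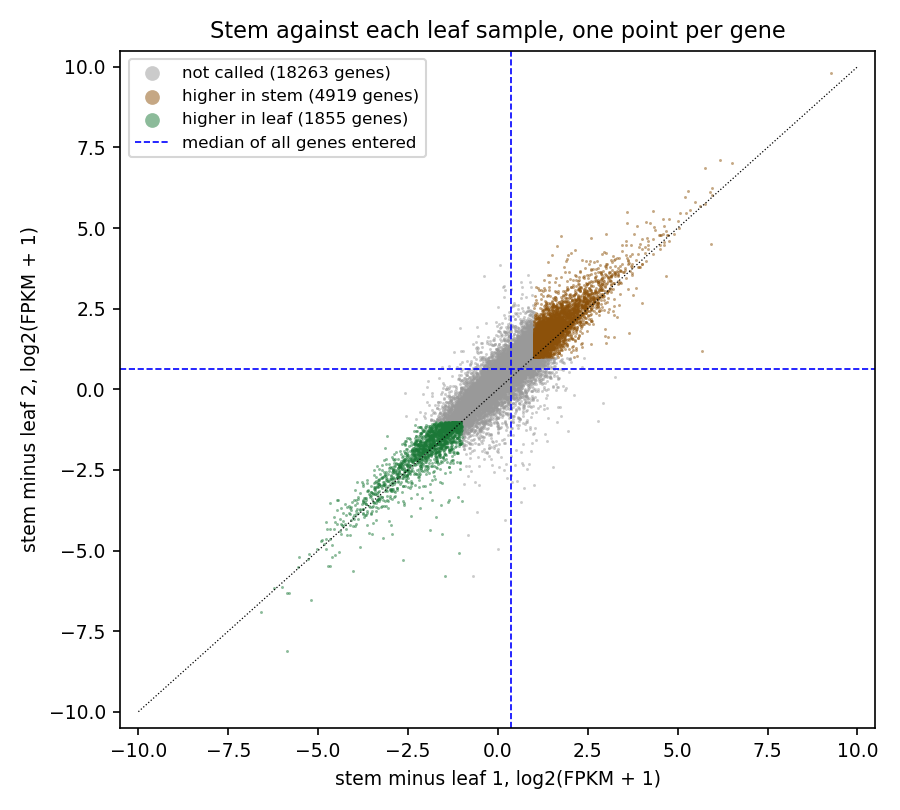
Difference of stem from leaf 1 (x axis) and from leaf 2 (y axis) on log2(FPKM + 1), one point for each of the 25037 genes entered. Brown points are the 4919 genes higher in stem, green points the 1855 higher in leaf and grey points the 18263 not called; the dotted diagonal marks equal differences, and the dashed lines, at 0.37 and 0.64, mark the medians of all genes entered.

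**Figure D2:**
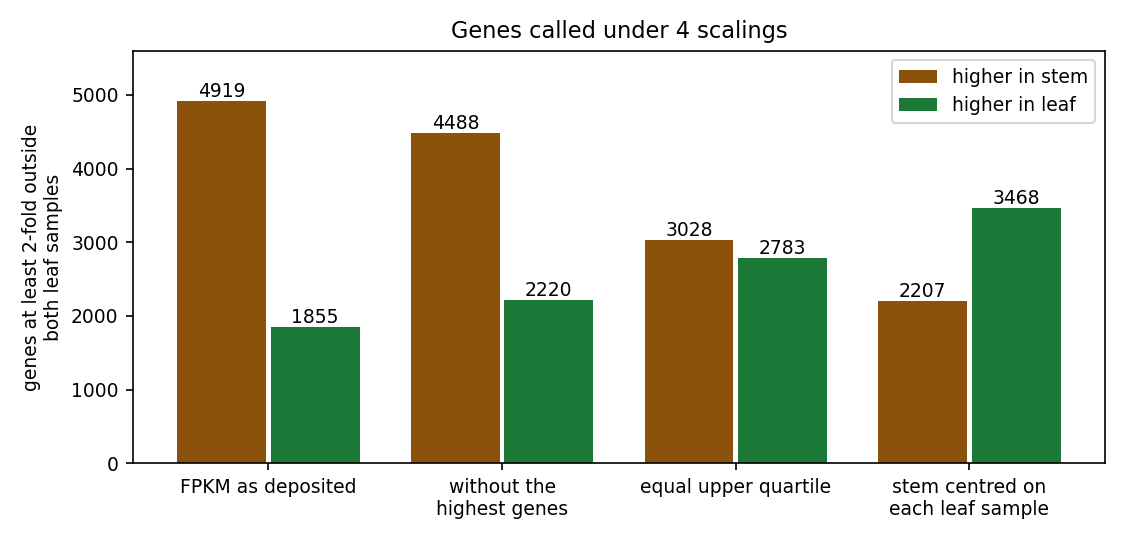
Number of genes at least 2-fold outside both leaf samples (y axis) for FPKM as deposited, for samples scaled without the 20 highest genes of each, for samples set to the same upper quartile and for stem centred on each leaf sample. Brown bars are genes higher in stem and green bars genes higher in leaf; the larger group is stem in the first scaling (4919 against 1855) and leaf in the last (2207 against 3468).

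The count also differed between the leaf samples taken singly. Against leaf 1 alone, 5367 genes were at least 2-fold higher in stem and 2655 lower. Against leaf 2 alone, 8642 were higher and 2233 lower. The 2 leaf samples differed by at least 2-fold from each other in 1224 of the 25037 genes (4.89%), of which 900 were higher in leaf 1 and 324 in leaf 2. Over all genes entered, the median absolute difference between the leaf samples was 0.34 on log2(FPKM + 1). The median of the signed differences of leaf 2 from leaf 1 was -0.29. Leaf samples were at least 2-fold apart in 216 of the 4919 genes higher in stem and 49 of the 1855 higher in leaf. This is beside 4.89% of all genes entered. A call requires stem to lie outside both leaf samples, so these counts are not independent of the rule.

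Limma was also run on log2(FPKM + 1) over stem, both leaf and both root samples, the same stem and leaf values with a spread from replicated organs, and with the lone stem sample assumed to vary like the leaf and root pairs. At an adjusted p under 0.05 (Benjamini-Hochberg over 25037 genes), 5448 genes (21.8%) were higher in stem and 2068 (8.26%) were lower. Since both use the same values, an overlap with the fold rule is built in: 4598 genes were called higher in stem by both and 1803 lower. At equal upper quartiles limma called 4898 genes higher and 3829 lower. The limma counts fell when 1 leaf sample was left out, with 1 sample each in leaf and stem and the spread from root alone. Without leaf 1 they dropped to 266 higher and 299 lower, and without leaf 2 to 215 and 332.

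On FPKM as deposited, the typical difference and level were larger among genes higher in leaf than among those higher in stem. Both rest on the values that made the calls, with all genes entered shifted toward stem at the median. The difference from the nearer leaf sample had a median of 1.37 on log2(FPKM + 1) among genes higher in stem and -1.59 among genes higher in leaf. A 4-fold difference or more was found in 818 genes higher in stem (3.27% of those entered) and 553 higher in leaf (2.21%), which is 16.6% and 29.8% of the genes called in each direction. At least 8-fold was reached by 159 and 184 genes, at least 16-fold by 48 and 46, and at least 64-fold by 3 in each direction. FPKM exceeded 500 in stem for 35 genes higher in stem, and in both leaf samples for 70 genes higher in leaf. The share of all genes entered above FPKM 500 is not given, so these counts have no background to be read against. Genes higher in stem had median FPKM of 14.6 in stem, 4.22 in leaf 1 and 3.08 in leaf 2. Those higher in leaf had medians of 27.3 in leaf 1, 24.3 in leaf 2 and 5.52 in stem. Over all genes entered the medians were 10.1 in stem, 7.87 in leaf 1 and 6.09 in leaf 2. Among genes called after centring, median FPKM as deposited was 17.4 in stem for those higher in stem. For those higher in leaf it was 18.7 in leaf 1 and 16.3 in leaf 2, so the contrast in level was not kept. Median differences and 4-fold shares after centring are not given. Genes closest to the threshold show what a call at its limit looks like: the last gene called higher in stem had FPKM of 27.2 in stem, 13.1 in leaf 1 and 10.1 in leaf 2, and the first one left out had 3.03, 1.02 and 0.878. On the leaf side the last gene called had 38.4 in stem, 91.8 in leaf 1 and 77.9 in leaf 2, and the first one left out had 0.180, 1.37 and 1.36.

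Calls were spread over weakly and strongly expressed genes. Genes were divided by the mean of stem and leaf into low (FPKM up to 5), medium (above 5 and up to 50) and high (above 50). Among 8373 genes of low level, 17.8% were higher in stem and 5.21% in leaf. Among 13740 of medium level the shares were 21.4% and 7.05%. Among the 2924 genes of high level they came close to each other, at 16.8% (490 genes) and 15.4% (450 genes). The classes rest on the same values as the calls, so the shares are not independent of them. The median difference of stem from leaf 1 and leaf 2 also varied by class. It was 0.37 and 0.58 at low, 0.40 and 0.72 at medium, and 0.21 and 0.42 at high level. Shares by level after centring are not given. The leaf pair was 2-fold apart in 4.04%, 5.09% and 6.395% of the genes of low, medium and high level.

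The deposited intervals were compared as well, with calls made on the same values. The interval of stem lay wholly above those of both leaf samples for 4791 of the 4919 genes higher in stem (97.4%), and wholly below them for 1844 of the 1855 genes higher in leaf (99.4%). Intervals were apart in one direction or the other for 14100 of all 25037 genes entered. The widths of the intervals did not follow the order of read totals that the study gives for these libraries, so how much of the counting error they hold is not known.

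Some genes were expressed in only one of stem and leaf by the study's rule, a lower interval bound above 0. They were counted among called genes only. Of all 25037 genes entered, 22977 were expressed in all 3 samples. Of the 4919 genes higher in stem, 385 were expressed in stem and in neither leaf sample, and 95 of them were listed at 0 in both leaf samples. Their levels were low, with a median FPKM of 2.40 and a highest value of 68.6 in stem. The intervals of stem and leaf were apart for 319 of the 385, and 171 were called after centring, which lowers stem against leaf. In the other direction, 262 genes were expressed in both leaf samples and not in stem, of which 74 were listed at 0 in stem. Their median FPKM was 3.55 in leaf 1 and 3.42 in leaf 2, with highest values of 116 and 158. The intervals were apart for 256 of these. Most genes of both kinds reached FPKM 1 in root, flower, silique or callus: 281 of the 385 and 211 of the 262. The other 104 of the 385 and 51 of the 262 stayed below it. These are larger shares than the 825 (3.30%) of all genes entered. The 385 and the 262 were of low level, and the reason for the larger shares was not tested.

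Bra020846 had the largest difference among genes higher in stem. It lies on Scaffold000032 from 337862 to 339269 in the coordinates of the deposited table, whose build the table does not name. Its FPKM was 1549 in stem, 1.499 in leaf 1 and 0.718 in leaf 2. The gene was nearly confined to stem in the whole series. FPKM was 0.0365 in root 1 and 0.0547 in flower, and the gene is listed at 0 in root 2, silique and callus. The intervals of the low leaf values ran from 1.03 to 1.97 in leaf 1 and from 0.320 to 1.12 in leaf 2. On log2(FPKM + 1) stem exceeded leaf 1 by 9.28 and leaf 2 by 9.82, and by 8.93 and 9.21 relative to the median shift. The difference in limma was 9.55 with an SE of 0.35 (adjusted p = 0.0012). Within 50 kb on either side, 5 of the 10 other genes entered were also higher in stem, beside 19.6% of all genes entered. The highest of them had FPKM of 196 in stem, 10.02 in leaf 1 and 7.90 in leaf 2.

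Bra027042, on Scaffold000054 from 434027 to 435035, had the highest FPKM in stem of all genes called higher there. In contrast to Bra020846 it was abundant in every sample. FPKM was 3839 in stem, 844 in leaf 1 and 1064 in leaf 2, so the leaf mean was 954 ± 155 (SD, n = 2) and stem was 4.02 times as high. Silique, at 3352, came closest to stem, followed by callus at 1833, root 2 at 1065, root 1 at 913 and flower at 397. Root 2 and leaf 2 could not be separated by their intervals, which ran from 1042 to 1089 and from 1040 to 1088. Stem exceeded leaf 1 by 2.18 and leaf 2 by 1.85 on log2(FPKM + 1), or by 1.84 and 1.24 relative to the median shift. The difference in limma was 2.02 with an SE of 0.38 (adjusted p = 0.014). Of 9 other genes entered within 50 kb, 4 were higher in stem, beside the same 19.6%. The highest of these, 5.39 kb away, had FPKM of 656 in stem, 8.10 in leaf 1 and 3.79 in leaf 2.

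Bra001886, on Scaffold000001 from 10371556 to 10372662, had the largest difference among genes higher in leaf. Its FPKM was 301 in leaf 1 and 380 in leaf 2, with a mean of 340 ± 56.2 (SD, n = 2), and 2.16 in stem (interval 0.961 to 3.36). Flower was the only other sample in which it stood out, at 26.2. It was 1.89 in silique, 0.960 in root 1, 0.560 in callus and 0.262 in root 2. The value in stem lay within the interval of silique, which ran from 0.800 to 2.99. Stem was below leaf 1 with a difference of -6.58 and below leaf 2 with -6.91 on log2(FPKM + 1), or -6.92 and -7.53 relative to the median shift. The difference in limma was -6.75 with an SE of 0.38 (adjusted p = 0.0012). Of 10 other genes entered within 50 kb, 1 was higher in leaf, beside 7.41% of all genes entered.

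Bra028181, on Scaffold000060 from 679078 to 680073, had the highest FPKM in leaf of genes called higher there, by the lower leaf sample. Its FPKM was 12016 in leaf 1 and 31653 in leaf 2, and 1302 in stem. The highest FPKM in leaf 2, 46077, was that of another gene. Bra028181 alone made up 1.74% of the summed FPKM of leaf 1 and 4.43% of leaf 2, against 0.180% of stem. The leaf samples were 2.63-fold apart, far beyond their intervals, and leaf 1 was still 9.23 times as high as stem. Flower had 2974, callus 1841, silique 744, root 2 23.5 and root 1 15.9. Stem differed from leaf 1 by -3.20 and from leaf 2 by -4.60 on log2(FPKM + 1), or by -3.55 and -5.21 relative to the median shift. The difference in limma was -3.90 with an SE of 0.61 (adjusted p = 0.0082). Of 8 other genes entered within 50 kb, 2 were higher in leaf, beside the same 7.41%. One of them, 43.4 kb away, showed the same order of stem, leaf 1 and leaf 2 at lower levels. Its FPKM was 366 in stem, 5963 in leaf 1 and 18296 in leaf 2. The study's methods state that uniquely mapped reads were counted, which the table itself does not say, and similarity between neighbouring genes was not tested. All 4 genes were chosen by their values in this comparison, so their p-values are a description.

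**Figure D3:**
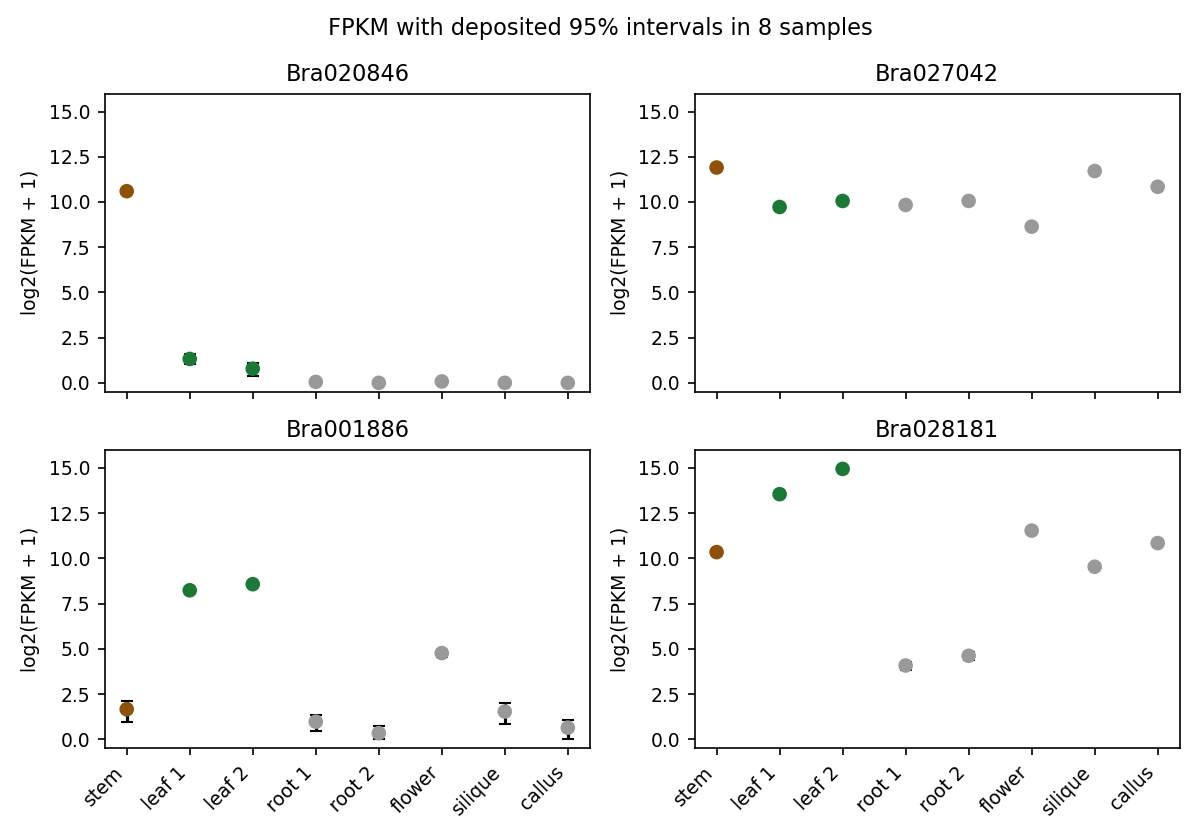
Level of 4 genes on log2(FPKM + 1) (y axis) in each of the 8 samples (x axis), with deposited 95% intervals as bars, which are smaller than the points at high levels. Brown marks stem, green leaf and grey the other tissues: Bra020846 is high in stem alone (FPKM 1549), Bra027042 is high in all samples, and Bra001886 and Bra028181 are highest in leaf.

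Genes higher in stem and genes higher in leaf also differed in the tissues that the comparison did not use. For each gene with FPKM of at least 1 in root, flower, silique or callus, the tissue with the highest FPKM among these 4 was recorded, with root as the mean of its 2 samples. Root was that tissue for 50.2% of the 4709 genes higher in stem, for 39.2% of all 24212 genes entered, and for 12.04% of the 1752 genes higher in leaf. Flower was that tissue for 48.7% of the genes higher in leaf, against 23.2% of all genes and 15.9% of those higher in stem. Callus led for 23.5% of the genes higher in leaf and 13.8% of those higher in stem, against 18.1% of all. Silique showed the smallest contrast, at 20.2% for stem, 15.8% for leaf and 19.6% for all. After centring, the shares for root were 52.5% of the genes higher in stem and 18.6% of those higher in leaf, and the shares for flower were 15.8% and 42.1%. These shares are descriptions across genes, which are not independent replicates, and flower, silique and callus have 1 sample each.

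The levels followed the same order. Genes higher in stem had median FPKM of 10.8 in root 1, 8.19 in root 2, 5.28 in flower, 5.32 in silique and 3.69 in callus. Both root samples were above the medians of all genes entered, 9.67 and 7.68, and the other 3 were below theirs, 7.41, 6.60 and 6.01. Genes higher in leaf had medians of 2.17 in root 1, 1.93 in root 2, 10.9 in flower, 4.95 in silique and 6.02 in callus. Only in flower was their median clearly above that of all genes. FPKM reached 1 in root 1 for 61.4% and in root 2 for 59.5% of the genes higher in leaf, against 89.0% and 86.5% of all genes entered. Genes below FPKM 1 in all 4 of these tissues numbered 210 (4.27%) among those higher in stem and 103 (5.55%) among those higher in leaf, beside 825 (3.30%) of all genes entered.

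**Figure D4:**
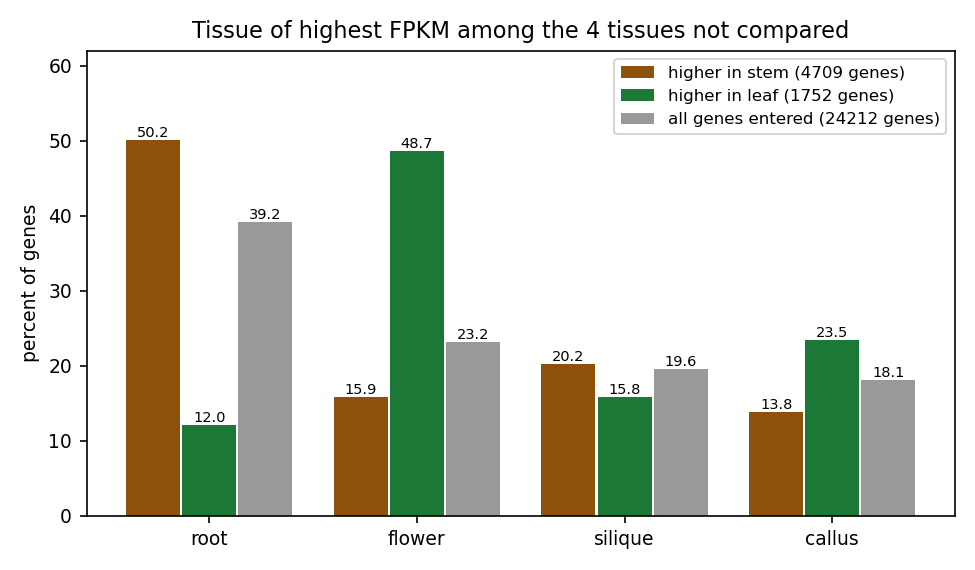
Percent of genes (y axis) whose highest FPKM among the 4 tissues not compared lay in root, flower, silique or callus (x axis). Brown bars are the 4709 genes higher in stem, green bars the 1752 higher in leaf and grey bars all 24212 genes entered; root leads for 50.2% of the genes higher in stem and flower for 48.7% of those higher in leaf.

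Among genes with the largest differences the share of flower grew on the stem side too, and that of root fell. Of the 159 genes at least 8-fold higher in stem, 145 reached FPKM 1 in another tissue, and this was highest in root for 58, in flower for 46, in callus for 21 and in silique for 20. Of the 48 genes at least 16-fold higher, 42 did so, led by flower (20 genes) ahead of root (11 genes). Root thus led for 40% at 8-fold and 26.2% at 16-fold, beside 39.2% of all genes entered. The larger share of root among all genes higher in stem was not seen at these folds. Flower led for 31.7% and 47.6%, beside 23.2% of all genes entered. On the leaf side, 175 genes at 8-fold and 43 at 16-fold reached FPKM 1 in another tissue. Flower led for 103 (58.9%) and 27 (62.8%) of them, and root for 6 (3.43%) and 2 (4.65%).

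Across all 6 tissues, stem was the highest for 2981 (60.6%) of the genes higher in stem, with root highest for 804, silique for 434, callus for 417 and flower for 283. Leaf was the highest tissue for 1236 (66.6%) of the genes higher in leaf, with flower highest for 250, callus for 191, silique for 112 and root for 66. Stem was highest for 31.8% of all genes entered and leaf for 12.99%. A call requires an excess of stem over leaf or of leaf over stem, so higher shares than these follow from the rule.

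Called genes lay beside each other more often than the overall shares. Taking each gene with its next neighbour on the scaffold, where both were entered and their loci did not overlap, the neighbour was also higher in stem for 951 of 3274 genes higher in stem (29.0%), against 19.7% over all 16422 such pairs. For genes higher in leaf it was 141 of 1165 (12.1%), against 7.08%. After centring the shares were 14.6% against 8.73% for stem and 20.5% against 13.4% for leaf. Tandem copies and neighbours of different kinds were not told apart, since no sequence was used.

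The longest run of neighbouring gene models called the same way held 7 genes higher in leaf, on Scaffold000019 from 3059416 to 3083741 (24.3 kb). The second gene was the highest, with FPKM of 78.9 in leaf 1, 40.9 in leaf 2 and 6.37 in stem. The fourth had 32.5, 19.8 and 6.06, and the last, the lowest, had 1.87, 1.88 and 0.197. The smallest difference from the nearer leaf sample was 1.08 on log2(FPKM + 1). No other run of genes higher in leaf exceeded 3 genes, of which there were 8. On the stem side 1 run held 6 genes and 10 runs held 5. The run of 6 lay on Scaffold000008 from 351074 to 377829 (26.8 kb). The third gene stood far above the others in stem, with FPKM of 353 in stem, 47.1 in leaf 1 and 18.4 in leaf 2, while the other 5 were between 12.02 and 49.1 in stem. After centring 4 of these 6 genes were called. The runs were picked for their length.

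**Figure D5:**
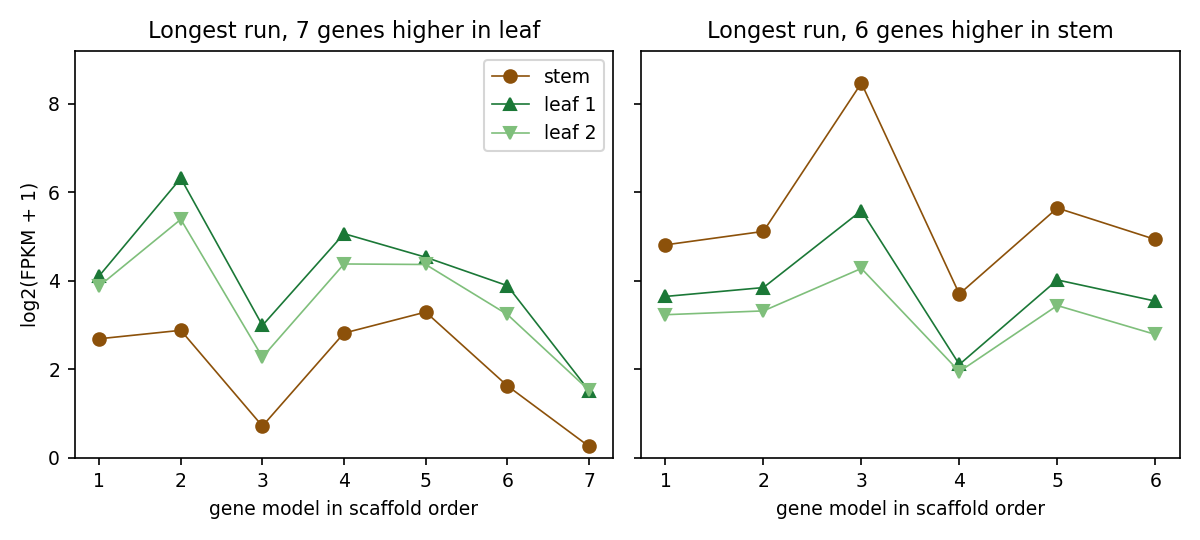
Level on log2(FPKM + 1) (y axis) of the gene models in the longest run higher in leaf (7 genes, left) and the longest run higher in stem (6 genes, right), in scaffold order (x axis). Brown circles are stem, dark green triangles leaf 1 and light green triangles leaf 2: at every gene, stem lies below both leaf samples on the left and above both on the right.

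Length differed little. The locus of a gene higher in stem spanned a median of 1920 bases and that of a gene higher in leaf 1722 bases, beside 1954 bases for all genes entered. These spans include introns. Genes that share one locus in the table, whose reads the authors' counting may divide between them, were left out of the medians and numbered 39, 11 and 164.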

How the data were processed

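For each of 38200 gene models on 423 scaffolds, the authors deposited an FPKM per library and the limits of its 95% confidence interval. The submitters' processing notes name TopHat 1.0.13, and the study's methods describe trimming, TopHat, Cufflinks and uniquely mapped reads. The methods give another TopHat version than the notes and the table names no tool or build, so the table's own run is not known. FPKM is relative to each library.

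Columns were matched to samples by the titles in the table. Genes with FPKM of at least 1 in stem or either leaf sample were compared on log2(FPKM + 1), which understates the change of low genes. The table holds no counts. Fragments derived from interval widths were dropped, because they put the libraries in another order than the study's read totals, so the depth behind each value is unknown. Limma (lmFit, eBayes with a trend) took its spread from the leaf and root pairs (2 residual degrees of freedom). Centring subtracted the median difference. Calculations were tested on simulated data. Python 3.11.15, pandas 2.3.3, R 4.3.3 and limma 3.58.1 were used.

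The comparison, its fold rule and the lists were chosen with earlier results of these data known. The genes named were, in each direction, the one with the largest difference from the nearer leaf sample and the one with the highest FPKM in the higher organ. Marker lists were not used, since the name table matched 1 identifier. Alternatives covered pseudocounts, filters, scaling, the fold, intervals, the samples in the fit and leaving out each leaf sample; scaling without the highest genes, and the tissues and neighbours after centring, were added after seeing the data.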

Additional observations from a re-analysis of the deposited data

How the results depend on the processing

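Genes higher in stem and higher in leaf numbered 4919 and 1855. They were 2213 and 1116 with a pseudocount of 5, 818 and 553 at 4-fold, 3028 and 2783 at equal upper quartiles, and 2207 and 3468 after centring. Without one leaf sample the counts were 5367 to 8642 and 2233 to 2655. In the other alternatives that could change them, the counts stayed within 1.5 times, at 4005 to 6667 and 1616 to 2388. These were a pseudocount of 0.1, FPKM of at least 5, the mean of leaf, intervals apart, and scaling without the highest genes. Leaving out the filter could not change the counts of the fold rule. A gene below FPKM 1 in stem and both leaf samples cannot reach 2-fold on log2(FPKM + 1). In limma, no filter on low FPKM gave 1401 higher and 730 lower, and equal upper quartiles gave 4898 and 3829. Without one leaf sample, limma gave 215 to 266 and 299 to 332, with a lone sample in leaf and in stem and the spread taken from root alone. A larger pseudocount can only shrink the differences that the fold rule uses, so its counts can only fall. All 2213 and 1116 genes called with a pseudocount of 5 were among the 4919 and 1855. The cause of the change in limma without the filter was not tested. No difference of the 4 named genes changed direction. No paired analysis was possible because stem has 1 sample and carries no replicate number. The table holds no counts, so how far depth limits low genes in each library is unknown.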
